A study of Mus musculus with 9 samples.

Results

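The nuclear subunits of respiratory complexes II to V were followed in mouse hearts of 3 groups. The members were the genes whose symbol is Sdha, Sdhb, Sdhc, Sdhd or Cyc1, or starts with Uqcr, with Cox and a digit from 4 to 8, or with Atp5, leaving out 3 names that hold -ps. This gave 47 of 43154 listed genes, with 4 in complex II, 9 in complex III, 17 in complex IV and 17 in complex V. Choice by name also took in Cox7a2l, Atp5s and Atp5sl, which are related factors and not known as core parts of the complexes.

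All 9 hearts came from C57BL/6 mice. Transgenic mice, labelled calcineurin transgenic or MHC-CnA, express calcineurin A in cardiomyocytes, from the promoter of the α-myosin heavy chain gene. Calcineurin is a phosphatase switched on by calcium that makes the heart grow. Vehicle was given to transgenic mice of 3 hearts, JIB-04, which inhibits Jumonji histone demethylases, to transgenic mice of 2 hearts, and vehicle to wild type mice of 4 hearts. Dosing began at 4 weeks of age and was given 3 times a week, with JIB-04 at 50 mg/kg. Transgenic vehicle heart 1, JIB-04 heart 1 and wild type hearts 1 and 2 were collected at day 125, and the other hearts at day 158, although the series text speaks of dosing until day 158. Hearts of JIB-04-treated wild type mice were not analysed here. The labels do not say whether the hearts of a group came from separate litters or preparations, so p-values measure the spread between these samples only.

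Levels are in FPKM, which counts sequenced fragments relative to transcript length and to all mapped fragments. Fold changes are differences of log2(FPKM + 1), which understates changes at low levels. In each comparison limma fitted the 13487 genes that reached 1 FPKM in 2 or more hearts, with a term for the day. A gene was called at a Benjamini-Hochberg adjusted p under 0.05 over all of them. Of the members 45 were tested. Cox8c was listed at 0 in every heart, and Cox7b2, a form best known from testis, was listed at 0.0042 FPKM or less in every heart. Values per heart are given in the order of the heart numbers.

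Succinate dehydrogenase, complex II, takes electrons from the citrate cycle, complex III passes them from ubiquinol to cytochrome c, and complex IV, cytochrome c oxidase, hands them to oxygen. Complex V, ATP synthase, uses the proton gradient so built to make ATP, on which the beating heart depends. Complexes III to V combine a few subunits made in the mitochondrion with many from nuclear genes. Some subunits of complex IV have a form found in heart and skeletal muscle (Cox6a2, Cox7a1, Cox8b) and a form found in most tissues (Cox6a1, Cox7a2, Cox8a).

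The promoters of 2 of these pairs are shown, those whose ratio of muscle form to ubiquitous form differed most between transgenic and wild type hearts. No RefSeq window was matched for Cox6a2, so its pair could not be shown. Each line holds the 250 bases before the start of the gene in RefSeq (build GRCm38.p6), 5′ to 3′ on the strand of the gene, with CpG pairs in capitals. The Cox7a1 window lies at chr7:30183921-30184170 on the plus strand, the Cox7a2 window at chr9:79759854-79760103 on the minus strand, the Cox8b window at chr7:140900447-140900696 on the minus strand and the Cox8a window at chr19:7217617-7217866 on the minus strand.
Cox7a1: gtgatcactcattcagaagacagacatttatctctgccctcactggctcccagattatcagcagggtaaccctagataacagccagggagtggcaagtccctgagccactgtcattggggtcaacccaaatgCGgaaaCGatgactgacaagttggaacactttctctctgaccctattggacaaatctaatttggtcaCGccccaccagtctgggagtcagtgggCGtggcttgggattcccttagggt
Cox7a2: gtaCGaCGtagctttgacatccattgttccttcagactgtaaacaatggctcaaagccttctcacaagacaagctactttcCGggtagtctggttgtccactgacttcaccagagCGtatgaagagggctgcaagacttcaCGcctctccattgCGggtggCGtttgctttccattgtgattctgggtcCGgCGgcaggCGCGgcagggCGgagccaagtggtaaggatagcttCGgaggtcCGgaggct
Cox8b: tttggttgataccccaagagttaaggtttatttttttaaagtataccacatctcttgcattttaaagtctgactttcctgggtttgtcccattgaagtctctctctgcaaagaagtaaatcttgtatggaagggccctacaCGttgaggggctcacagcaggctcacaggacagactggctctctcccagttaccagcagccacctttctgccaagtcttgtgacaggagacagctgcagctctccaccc
Cox8a: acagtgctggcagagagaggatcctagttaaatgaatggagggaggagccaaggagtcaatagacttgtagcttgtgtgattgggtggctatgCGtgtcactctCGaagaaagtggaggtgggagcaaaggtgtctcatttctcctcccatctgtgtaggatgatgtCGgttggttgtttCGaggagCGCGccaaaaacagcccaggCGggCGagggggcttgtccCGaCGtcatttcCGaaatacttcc
The muscle forms shown had few CpG pairs in these windows (4 in Cox7a1, 1 in Cox8b), and their partners had more (14 in Cox7a2, 11 in Cox8a). RefSeq windows of 300 bases, which add the first 50 bases of the gene, were matched for 37 members, 34 by symbol and 3 by synonym. Their median was 19 CpG pairs, against 7 over all 32817 windows. Cox6a1 had 32, Cox7a2 20, Cox8a 19, Cox7a1 7 and Cox8b 2. Motifs of factors known to bind nuclear genes of respiration were searched on both strands in the 300 bases. The core of the NRF1 palindrome, CGCATGCG, stood in 6 of the 37 windows (16.2%, against 1.86% of all windows), those of Uqcr11, Uqcrc1, Cox6a1, Atp5g2, Atp5k and Atp5l. The YY1 motif AAGATGGC stood in 3 (8.1%, against 2.74%), and the estrogen-related receptor element TCAAGGTCA in 2, Sdhd and Atp5g3 (5.4%, against 0.42%). None of the 3 motifs overlaps another in its letters, and the counts are a description, with no test. The NRF1 letters hold CpG pairs, which were more frequent in the members' windows, and the part of this in the count was not tested. The 4 windows printed above hold none of the 3 motifs.

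The hearts were first checked against their labels. Ppp3ca, which encodes the catalytic subunit of calcineurin, stood at 1762, 1706 and 199 FPKM in the transgenic vehicle hearts, 1536 and 1434 FPKM in the JIB-04 hearts, and between 22.9 and 24.8 FPKM in the wild type hearts. Transgenic vehicle heart 3 was therefore far below the other transgenic hearts and above all wild type hearts. It was also the lowest of its group in 42 of the 45 tested members, and JIB-04 heart 2 was the lower of its pair in 45. These 2 hearts alone listed mt-Atp6, mt-Atp8 and mt-Co3 above 0, and wild type heart 2 listed mt-Co1 and mt-Co2 at 0, so the subunits made in the mitochondrion are not compared here. The exception is mt-Cytb of complex III, listed in all hearts at 4993, 4979 and 5069.8 FPKM with the transgene and vehicle, 4816 and 5007 FPKM with the transgene and JIB-04, and 6812, 7023, 6369 and 6529.6 FPKM in wild type. Summed markers of cardiomyocytes, 8 genes, reached 9488 to 11006 FPKM in transgenic vehicle hearts, 9360 to 10337 FPKM in JIB-04 hearts and 12376 to 14227 FPKM in wild type hearts. Summed markers of fibroblasts, 7 genes, reached 604 to 655 FPKM in transgenic vehicle hearts, 645 to 673 FPKM in JIB-04 hearts and 282 to 359 FPKM in wild type hearts. Those of endothelium, 6 genes, reached 105 to 135 FPKM in transgenic vehicle hearts, 110.2 to 114 FPKM in JIB-04 hearts and 184 to 195 FPKM in wild type hearts. Those of macrophages, 5 genes, reached 111 to 128 FPKM in transgenic vehicle hearts, 115 to 125 FPKM in JIB-04 hearts and 84.0 to 117 FPKM in wild type hearts. The part of these markers in the members' differences was not tested. All 5 adipocyte markers, and 5 of 7 of skeletal muscle, were under 1 FPKM in every heart. Read totals were not given. Judged by the step size of low values, relative depth ran from 1, in wild type heart 1, to 1.499, in JIB-04 heart 1.

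Nuclear subunits of all 4 complexes were lower in transgenic vehicle hearts than in wild type hearts. By limma 40 of the 45 tested members fell and 0 rose, while 15.7% of all tested genes were called lower and 20.3% higher. The members' median log2 fold change was -0.57, a fold of 0.673, against 0.05 over all tested genes. In 41 members every transgenic vehicle heart lay below every wild type heart, which held for 17.7% of all tested genes. Summed over all members, the level was 24719.5, 22532 and 19766 FPKM in the transgenic vehicle hearts, 24536 and 18977 FPKM in the JIB-04 hearts, and 37489, 34835, 30576 and 30412 FPKM in the wild type hearts. The groups' sums did not overlap between transgenic and wild type hearts. In whole hearts, fewer cells of a type and less RNA per cell cannot be told apart. Divided by the summed cardiomyocyte markers, the sums came to 2.25, 2.18 and 2.08 in transgenic vehicle hearts, 2.37 and 2.03 in JIB-04 hearts and 2.64, 2.66, 2.47 and 2.35 in wild type hearts. On that scale the transgenic vehicle hearts stayed below the wild type hearts, while JIB-04 heart 1 lay above the lowest wild type heart. The part of cell makeup in the result was not tested, nor was a change of the markers within cardiomyocytes.

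**Figure D1:**
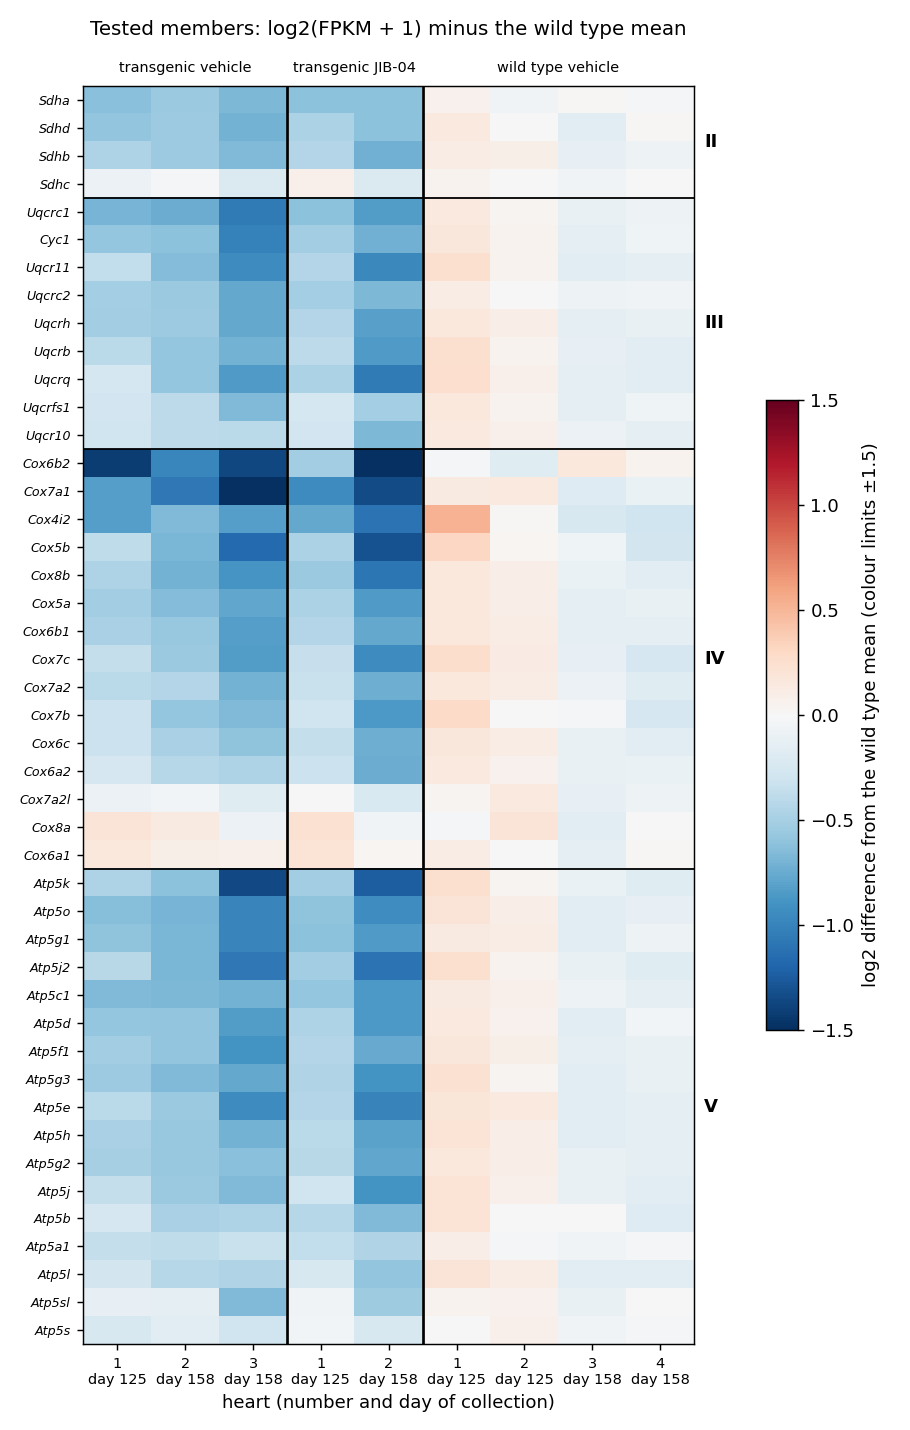
Each row is a tested member, grouped by complex, and each column a heart, with its number and day below. The colour gives log2(FPKM + 1) minus the mean of the wild type hearts (limits ±1.5). The transgenic columns are blue in nearly all rows, and Sdhc, Cox7a2l, Cox8a and Cox6a1 are among the palest rows.

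The count moved under some scalings of the values and with the hearts used. The files record no scaling between hearts, and summed FPKM ran from 580388 to 682945 in transgenic vehicle hearts, 620631 and 661960 in JIB-04 hearts, and 662983 to 769368 in wild type hearts. With every heart set to the same total, the median of all genes moved to 0.24, members called lower numbered 21 (7.43% of all tested genes were called lower there) and Cox6a1 was called higher (0.35, adjusted p = 0.0215, limma). Of the genes chosen by the naming rule, 10 lost their call there: Sdhb, Uqcr10, Uqcr11, Uqcrq, Cox6a2, Cox7a2, Atp5a1, Atp5b, Atp5k and Atp5s. The members' median relative to that of all genes was -0.58 after this scaling, -0.42 after quantile normalization and -0.62 without either. For JIB-04 against wild type hearts it was -0.62, -0.40 and -0.65 under the same settings. In the day 158 hearts alone, 2 transgenic vehicle and 2 wild type hearts in a fit of 5, 10 members were called lower, with a median of -0.53, while 4.02% of all tested genes were called lower.

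Of the 4 genes of complex II 3 fell, and Sdhc was not called. Sdha, the flavoprotein that oxidises succinate, stood at 360.3, 379 and 349 FPKM in the transgenic vehicle hearts, 364 and 362 FPKM in the JIB-04 hearts, and 582, 534, 561 and 549 FPKM in the wild type hearts. It had the smallest adjusted p of the members, with a log2 fold change of -0.62 (SE 0.06, adjusted p = 0.00028, limma), and hearts of a group lay close together. Sdhb, the iron-sulfur subunit, stood at 404, 382 and 349.7 FPKM with the transgene and vehicle, 410.0 and 338 FPKM with JIB-04, and 601, 592, 509 and 526 FPKM in wild type. The transgenic hearts lay below all wild type hearts again, and Sdhb fell by 0.52. Sdhd, which anchors the enzyme in the inner membrane, stood at 234, 242 and 216 FPKM in transgenic vehicle hearts, 254 and 229 FPKM in JIB-04 hearts, and 388, 353, 313 and 358 FPKM in wild type hearts. Sdhd fell by 0.59. Sdhc, the partner of Sdhd in the membrane anchor, gave 319.7, 332 and 292 FPKM with the transgene and vehicle, 356 and 291 FPKM with JIB-04, and 351, 338, 327 and 339 FPKM in wild type. The groups overlapped, and its log2 fold change was -0.09 (adjusted p = 0.40, limma), with the opposite sign under scaling to equal totals (0.13) and quantile normalization (0.043). The difference between the partners of the membrane anchor was not itself tested.

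All 9 genes of complex III fell, with log2 fold changes from -0.80 to -0.33. Uqcrc1, a core subunit, fell by 0.80 (SE 0.08, adjusted p = 0.00031, limma), the largest drop of the complex. Its level was 410.0, 395 and 317 FPKM in the transgenic vehicle hearts, 432 and 373 FPKM in the JIB-04 hearts, and 738, 681, 616 and 629 FPKM in the wild type hearts. Cyc1, the haem protein that hands electrons to cytochrome c, was at 431, 422 and 319 FPKM with the transgene and vehicle, 448 and 391 FPKM with JIB-04, and 726, 669, 582 and 617 FPKM in wild type, and fell by 0.70. In both genes transgenic vehicle heart 3 was the lowest of the 9 hearts. Uqcr11, a small accessory subunit, fell by 0.59. Uqcrq, a ubiquinone-binding accessory subunit and the most abundant of the complex in wild type, had 926, 747 and 617 FPKM in transgenic vehicle hearts, 802 and 534 FPKM in JIB-04 hearts, and 1324, 1169.6, 1005 and 987 FPKM in wild type hearts. Uqcrq fell by 0.49, and its hearts spread more within each group than those of Sdha. Uqcr10, another small subunit, fell least, by 0.33, with 727, 684 and 673 FPKM in transgenic vehicle hearts, 731 and 559 FPKM in JIB-04 hearts, and 987, 940.0, 844 and 816 FPKM in wild type hearts. Uqcr10 lost its call under quantile normalization (-0.14, adjusted p = 0.117, limma) and without transgenic vehicle heart 1 (-0.26, adjusted p = 0.0541, limma), and Uqcrq under quantile normalization (-0.31, adjusted p = 0.0718, limma). The other members, Uqcrfs1 (the Rieske iron-sulfur protein), the core subunit Uqcrc2, and Uqcrb and Uqcrh, had log2 fold changes from -0.59 to -0.41.

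Of the 15 tested genes of complex IV 12 fell, with a median of -0.51 over the 15. The pairs of muscle and ubiquitous forms moved unequally. All 3 muscle forms fell, by 0.34 for Cox6a2, 1.20 for Cox7a1 and 0.63 for Cox8b. Of the forms of most tissues, Cox7a2 fell by 0.47, while Cox6a1 and Cox8a had log2 fold changes of 0.12 and 0.11 (adjusted p = 0.195 and 0.355, limma).

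Cox7a1 lies at chromosome 7, 30184171 to 30186028 (GRCm38). It was at 801, 671 and 372 FPKM in the transgenic vehicle hearts, 738 and 559 FPKM in the JIB-04 hearts, and 1561, 1572, 1241 and 1329 FPKM in the wild type hearts. The highest transgenic heart was far below the lowest wild type heart, and transgenic vehicle heart 3 was the lowest of all. With the day 158 hearts alone the change was -1.36 and missed the threshold (adjusted p = 0.054, limma). Cox7a2, at chromosome 9, 79755241 to 79759853, gave 239.9, 235 and 195 FPKM with the transgene and vehicle, 253 and 191 FPKM with JIB-04, and 357, 344, 299 and 281 FPKM in wild type.

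Cox8b, at chromosome 7, 140898943 to 140900446, was at 840.0, 709 and 625 FPKM in transgenic vehicle hearts, 785 and 544 FPKM in JIB-04 hearts, and 1292, 1243, 1078 and 1034 FPKM in wild type hearts. Its partner Cox8a, at chromosome 19, 7215158 to 7217616, was at 323, 309 and 265 FPKM in transgenic vehicle hearts, 329.6 and 271 FPKM in JIB-04 hearts, and 277, 321, 249.9 and 282 FPKM in wild type hearts. Transgenic and wild type hearts were apart for Cox8b and overlapped for Cox8a.

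Cox6a2, at chromosome 7, 128205436 to 128206366, gave 1036, 914 and 892 FPKM with the transgene and vehicle, 981 and 733 FPKM with JIB-04, and 1361, 1283, 1144 and 1149 FPKM in wild type. Cox6a1, at chromosome 5, 115345642 to 115348981, gave 211, 201 and 199.7 FPKM with the transgene and vehicle, 219 and 194 FPKM with JIB-04, and 206, 189.9, 172 and 193 FPKM in wild type. The call of Cox6a2 was lost under equal totals (-0.12, adjusted p = 0.41, limma) and quantile normalization (-0.18, adjusted p = 0.089, limma). Exons of Cox6a2 share positions with Itgad, and the kit did not keep strand.

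A ratio of 2 forms in the same heart hardly depends on the scale between hearts. The log2 ratio of Cox7a1 to Cox7a2, taken on FPKM + 1, was 1.74, 1.51 and 0.93 in the transgenic vehicle hearts, 1.54 and 1.54 in the JIB-04 hearts, and 2.13, 2.19, 2.05 and 2.24 in the wild type hearts. The log2 ratio of Cox8b to Cox8a was 1.38, 1.20 and 1.24 with the transgene and vehicle, 1.25 and 1.001 with JIB-04, and 2.22, 1.95, 2.11 and 1.87 in wild type. The log2 ratio of Cox6a2 to Cox6a1 was 2.29, 2.18 and 2.15 in transgenic vehicle hearts, 2.16 and 1.91 in JIB-04 hearts, and 2.72, 2.75, 2.72 and 2.57 in wild type hearts. In every heart the muscle form was the more abundant, and in all 3 pairs every transgenic heart lay below every wild type heart. How often ratios of other gene pairs lie apart in this way was not counted. For levels of single genes, every transgenic vehicle heart lay below every wild type heart in 17.7% of those tested. That share leaves out the JIB-04 hearts and is no base rate for ratios. Over the 5 transgenic and 4 wild type hearts, the differences were -0.70 for the Cox7a pair, -0.82 for the Cox8 pair and -0.55 for the Cox6a pair. Each had an exact two-sided permutation p of 0.0079, the smallest that 126 arrangements allow, and the same value adjusted over the 3 ratios. Without transgenic vehicle heart 3 the differences were -0.57 for the Cox7a pair, -0.83 for the Cox8 pair and -0.56 for the Cox6a pair.

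**Figure D2:**
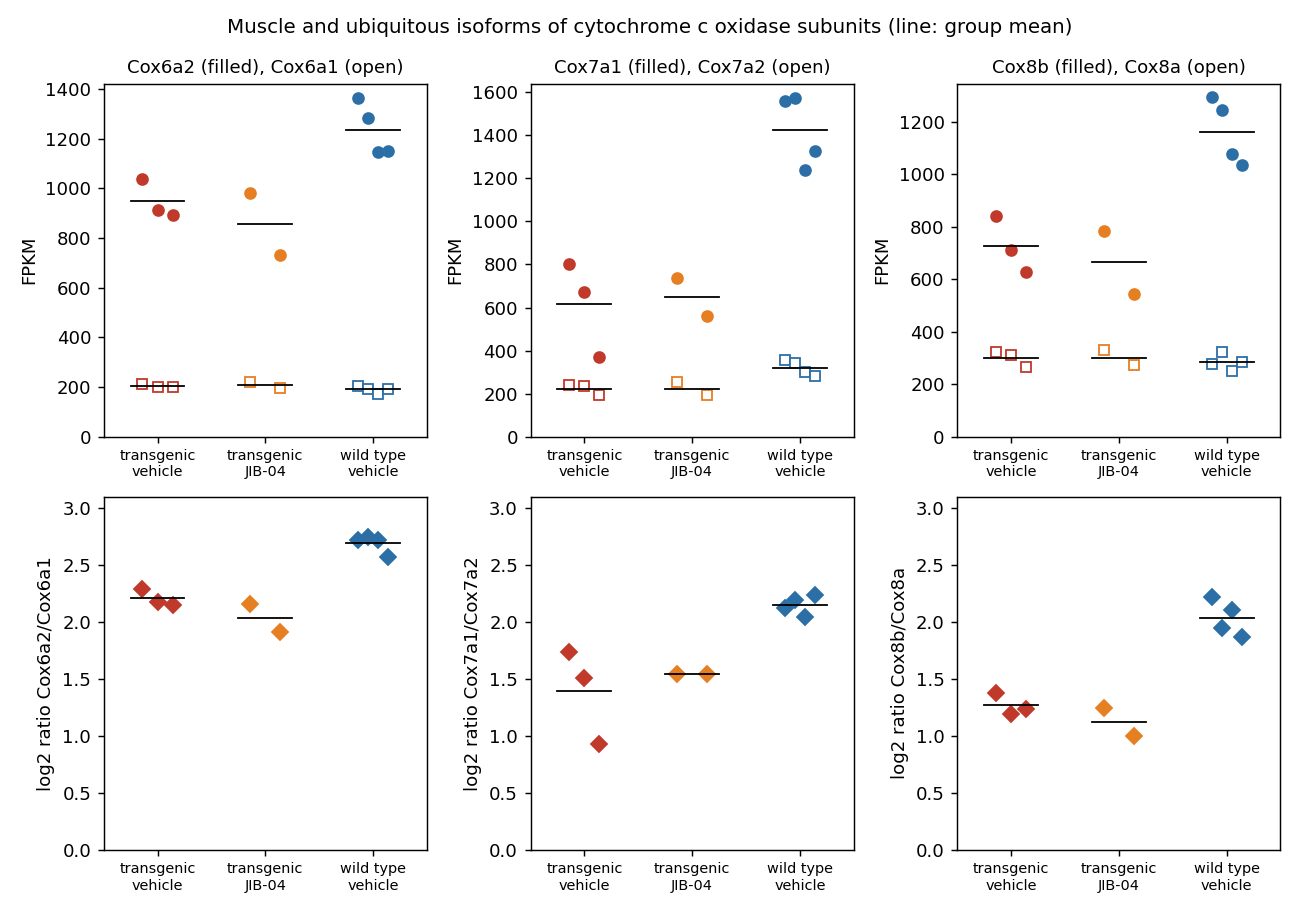
The upper panels give the FPKM of the muscle form (filled) and of the form of most tissues (open) in each heart, and the lower panels their log2 ratio, with a line at each group mean. The ratios of the 5 transgenic hearts lie below those of the 4 wild type hearts in all 3 pairs.

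The ratios were also taken group by group. Transgenic vehicle hearts against wild type hearts gave exact permutation p = 0.0286 for each ratio, the smallest possible with 35 arrangements. JIB-04 hearts against wild type hearts gave 0.0667 for each, which is the smallest that 15 arrangements allow, so 0.05 could not be reached. JIB-04 hearts against transgenic vehicle hearts overlapped, with differences of 0.15 for Cox7a1 over Cox7a2, -0.15 for Cox8b over Cox8a and -0.17 for Cox6a2 over Cox6a1 (exact permutation p = 0.8, 0.5 and 0.2, with 0.1 as the smallest possible). Within day 125, 2 transgenic and 2 wild type hearts differed by -0.52, -0.77 and -0.51 in the Cox7a, Cox8 and Cox6a ratios. Within day 158, 3 transgenic and 2 wild type hearts differed by -0.82, -0.84 and -0.57, so all 3 ratios were lower at either day.

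Among the other genes of complex IV, Cox6b2, a form of subunit 6b best known from testis, had the largest fold change of all members, -1.24, at a low level. It was at 1.25, 2.06 and 1.34 FPKM in the transgenic vehicle hearts, 3.21 and 1.05 FPKM in the JIB-04 hearts, and 4.95, 4.31, 5.71 and 5.25 FPKM in the wild type hearts. Cox4i2, the lung-rich and oxygen-responsive form of subunit 4, had 7.72, 8.79 and 7.71 FPKM with the transgene and vehicle, 8.04 and 6.18 FPKM with JIB-04, and 21.3, 14.6, 12.1 and 11.5 FPKM in wild type. No gene was listed as Cox4i1, so Cox4i2 is the only form of subunit 4 among the members. Cox4i2 fell by 0.72, but missed the threshold without transgenic vehicle heart 1 (-0.51, adjusted p = 0.065, limma). Summed markers of smooth muscle and pericytes, 5 genes, were at 98.1 to 135 FPKM in transgenic vehicle hearts, 104 to 108 FPKM in JIB-04 hearts and 154 to 184 FPKM in wild type hearts, and their part in the change of Cox4i2 was not tested. Cox7a2l has been linked to the joining of complexes III and IV into supercomplexes, a role not examined in these hearts. It gave 223, 229.7 and 209 FPKM in transgenic vehicle hearts and 238 and 201 FPKM in JIB-04 hearts. Wild type hearts had 244, 263, 218 and 225 FPKM. These groups overlapped, and the log2 fold change of Cox7a2l, -0.08 (adjusted p = 0.44, limma), turned to 0.15 under equal totals. The other subunits with no second form among the tested members, Cox5a, Cox5b, Cox6c, Cox7b and Cox7c, all fell, by 0.42 to 0.66. Cox6b1 fell by 0.58.

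**Figure D3:**
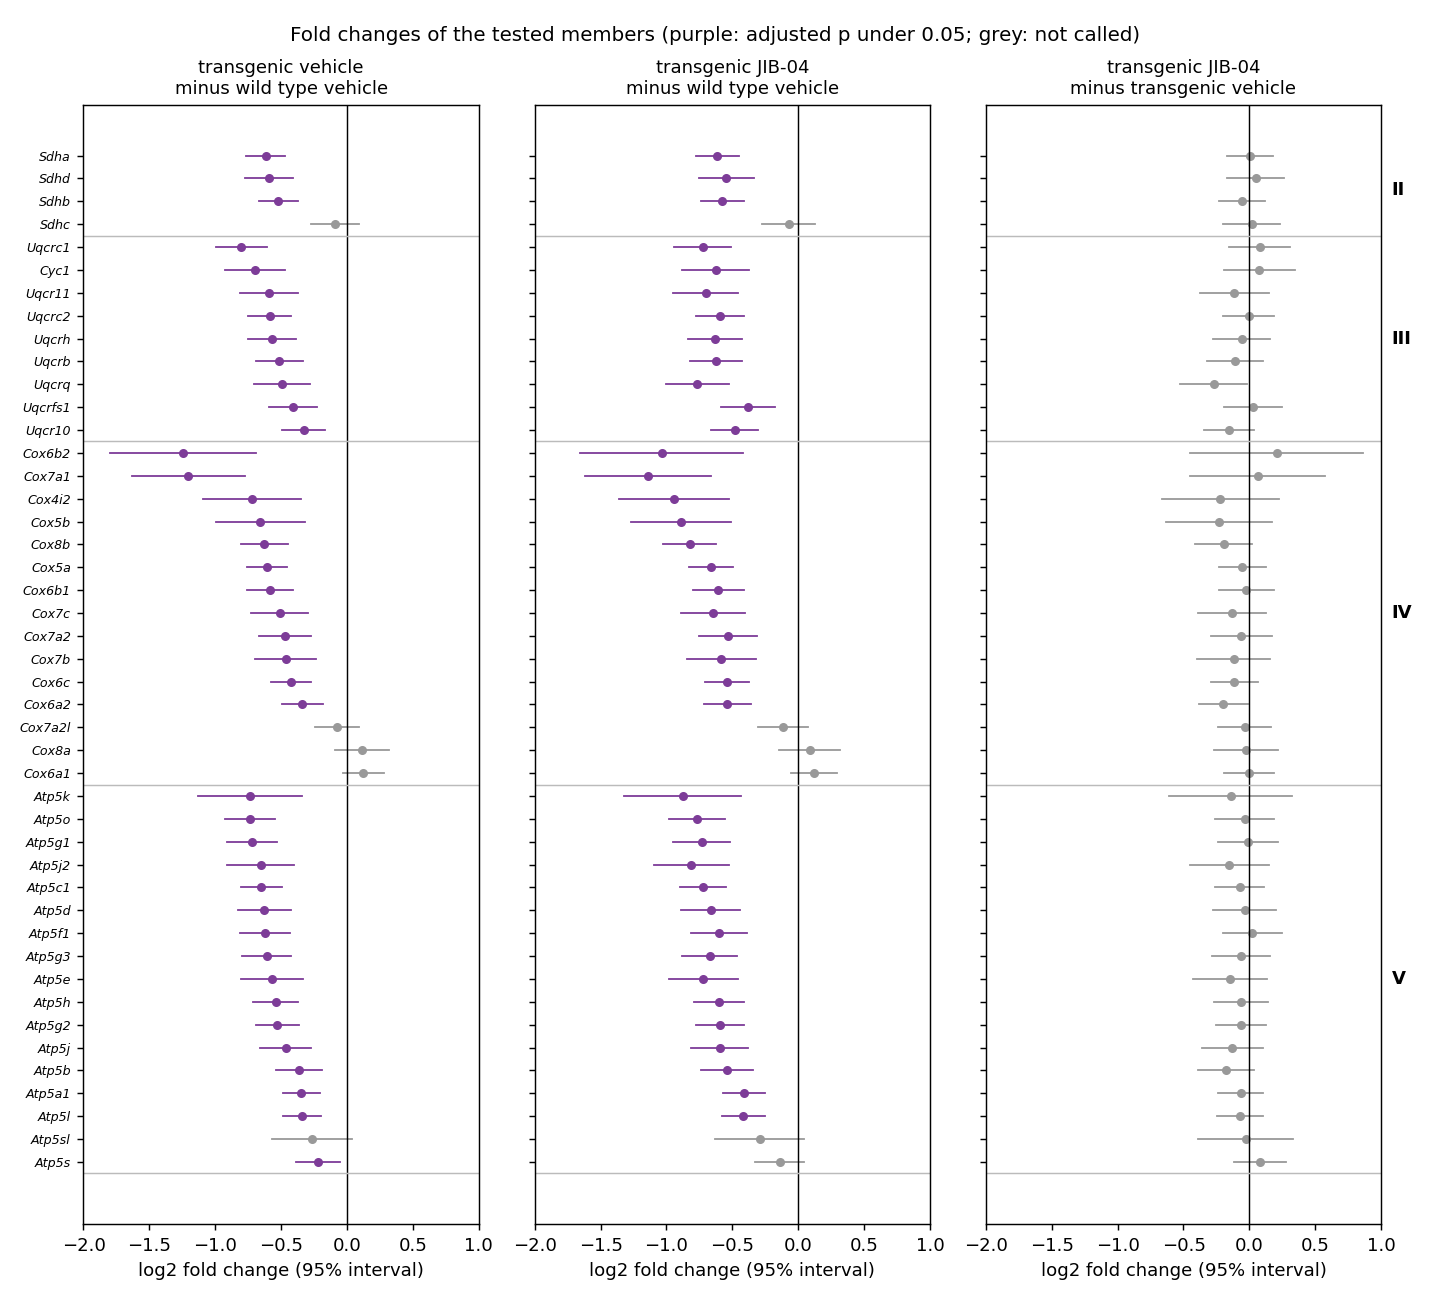
Log2 fold changes of the 45 tested members with 95% intervals, from left to right for transgenic vehicle minus wild type, JIB-04 transgenic minus wild type and JIB-04 transgenic minus transgenic vehicle hearts. Purple marks an adjusted p under 0.05 (40, 39 and 0 members). In the right panel all intervals except those of Uqcrq and Cox6a2 span 0.

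Of the 17 genes of complex V 16 fell, with a median of -0.57. Both subunits of the catalytic head that bind nucleotides, Atp5b and Atp5a1, had the highest levels of the complex. Atp5b, the catalytic β subunit and the highest of all members, was at 2031, 1740.4 and 1759.8 FPKM in the transgenic vehicle hearts, 1803 and 1540.4 FPKM in the JIB-04 hearts, and 2799, 2426, 2411 and 2125 FPKM in the wild type hearts. Atp5a1, the α subunit, was at 1067, 1048 and 1081 FPKM with the transgene and vehicle, 1053 and 996 FPKM with JIB-04, and 1458, 1346, 1311 and 1344 FPKM in wild type. Both fell, by 0.37 and 0.35, and neither kept its call under equal totals (-0.14 and -0.12). The call of Atp5b was also lost with no filter on low values (adjusted p = 0.0823, limma). Atp5c1 of the central stalk fell by 0.65, and Atp5d and Atp5e by 0.63 and 0.57.

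The c ring, the rotor in the membrane, is built from a protein encoded by Atp5g1, Atp5g2 and Atp5g3. Atp5g1 was at 867, 821 and 661 FPKM in transgenic vehicle hearts, 859 and 732 FPKM in JIB-04 hearts, and 1453, 1421, 1168 and 1254 FPKM in wild type hearts. It fell by 0.72 (SE 0.08, adjusted p = 0.00046, limma), and Atp5g2 and Atp5g3 fell by 0.53 and 0.61. Atp5o, at the top of the peripheral stalk, was at 503, 483 and 394 FPKM with the transgene and vehicle, 517 and 411 FPKM with JIB-04, and 897, 841, 703 and 719 FPKM in wild type. Atp5o fell by 0.73, although its listed locus of 247290 bases shares exon positions with other genes, among them Donson. Of the rest of the stalk, Atp5f1, Atp5h and Atp5j fell by 0.62, 0.54 and 0.47.

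Atp5k, subunit e of the membrane part, was at 389, 350.4 and 211 FPKM in the transgenic vehicle hearts, 375 and 228 FPKM in the JIB-04 hearts, and 637, 554, 502 and 473 FPKM in the wild type hearts. It fell by 0.73 (SE 0.17), with transgenic vehicle heart 3 and JIB-04 heart 2 well under the other transgenic hearts. Its neighbours in the membrane, Atp5j2 and Atp5l, fell by 0.66 and 0.34. Atp5s, known as coupling factor B, had 13.1, 13.8 and 12.5 FPKM in transgenic vehicle hearts, 15.1 and 13.1 FPKM in JIB-04 hearts, and 15.6, 16.6, 15.0 and 15.3 FPKM in wild type hearts. Its change of -0.22 was near the threshold (adjusted p = 0.043, limma). Its call was lost when either JIB-04 heart, any wild type heart, or transgenic vehicle heart 1 or 3 was left out. Atp5sl, known from human cells as an assembly factor of complex I, was named after its values were seen, as the only gene of the complex that was not called. It had 34.6, 34.5 and 23.6 FPKM in transgenic vehicle hearts, 36.4 and 25.9 FPKM in JIB-04 hearts, and 39.1, 39.6, 35.1 and 37.6 FPKM in wild type hearts (-0.26, adjusted p = 0.15, limma).

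Hearts of JIB-04-treated transgenic mice were also lower than wild type hearts in nearly all members. By limma 39 of 45 fell and 0 rose, while 14.8% of all tested genes were called lower and 17.4% higher. The median was -0.61, a fold of 0.657, and the same wild type hearts served in both comparisons. With the day 158 hearts alone 8 members were called lower, while 2.63% of all tested genes were. That fit holds a single JIB-04 heart, which is assumed to vary like the hearts of the other groups. In the fit of all 9 hearts, the members not called were Sdhc, Cox7a2l, Cox6a1, Cox8a, Atp5sl and Atp5s (-0.14, adjusted p = 0.22, limma, for Atp5s). Cox7a1 fell by 1.14 in JIB-04 hearts, Uqcrc1 by 0.73, Sdha by 0.61, Atp5o by 0.77 and Cox8b by 0.82. The values of Cox6a1 and Cox8a were 0.12 and 0.09. Under quantile normalization Cox6a1 was called higher (0.23, adjusted p = 0.039, limma). With JIB-04 heart 1 as the only heart of its group, again assumed to vary like the others, the change of Cox6b2 was -0.41 (adjusted p = 0.195, limma), against -1.04 with both, and that of Cox7a1 was -1.16 (adjusted p = 0.0508).

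JIB-04 hearts were set against transgenic vehicle hearts, the comparison that carries the drug. No member was called by limma among 45, with an adjusted p of 0.987 at the smallest, while 0.00741% of all tested genes (1 gene) were called. At an unadjusted p under 0.05 there were 2 members, against 3.29% of all tested genes. The median of the members was -0.06, a fold of 0.958, and JIB-04 and vehicle hearts overlapped in all 45. The share of all tested genes that overlapped in this comparison was not counted. The 3 members with the smallest p were Uqcrq (-0.27, 95% interval -0.53 to -0.02), Cox6a2 (-0.20, -0.39 to -0.01) and Cox8b (-0.20, -0.41 to 0.02). Uqcrq reached 802 and 534 FPKM in hearts with JIB-04, against 926, 747 and 617 FPKM in the transgenic vehicle hearts. Cox6a2 reached 981 and 733 FPKM in hearts with JIB-04, against 1036, 914 and 892 FPKM in the transgenic vehicle hearts. In both genes JIB-04 heart 1 lay inside the range of the vehicle hearts and JIB-04 heart 2 under it. For Cox7a1 the difference was 0.06, with an interval from -0.45 to 0.57, and for Sdha 0.0029, from -0.17 to 0.18. The members' 95% intervals had a median width of 0.44, and a p that misses the threshold does not show that hearts with and without JIB-04 were alike.

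Day 158 hearts had lower values than day 125 hearts. All 45 members had a log2 difference below 0, with a median of -0.25, against 56% of all tested genes and a median of -0.03. At an unadjusted p under 0.05, 35 members were lower, against 12.1% of all tested genes. None passed after adjustment by limma (smallest adjusted p = 0.076), when 0.222% of all tested genes were called lower. Leaving out transgenic vehicle heart 2 brought 13 members past the threshold on the lower side, with 1.64% of all tested genes called lower in that fit, and quantile normalization brought the median to -0.08. The direction stood in each group. The median was -0.20 in transgenic vehicle hearts (41 of 45 below 0), from hearts 2 and 3 against heart 1. The JIB-04 hearts gave -0.37 (45 of 45), from heart 2 against heart 1. The wild type hearts gave -0.26 (44 of 45), from hearts 3 and 4 against hearts 1 and 2. Members share these few hearts, so the counts are not separate repeats. The share of all tested genes below 0 was not counted by group. Without transgenic vehicle heart 3 and JIB-04 heart 2, the median over all groups was -0.20. Age at collection, the dosing time and whatever else differed between the collection days move together in these hearts and cannot be told apart.

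**Figure D4:**
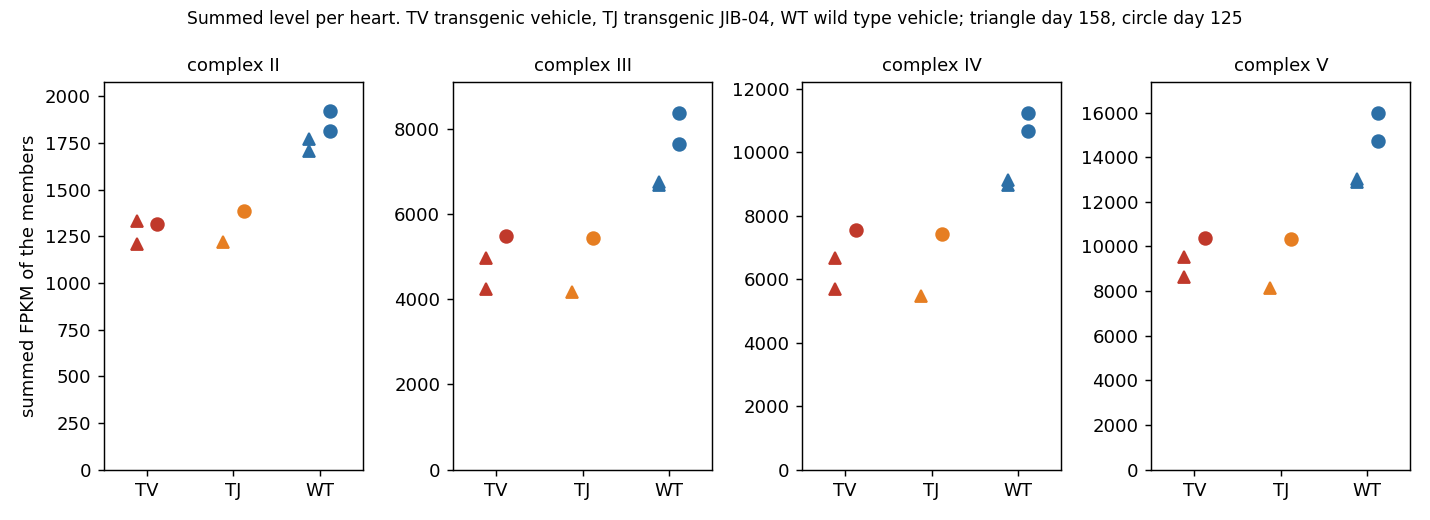
Summed FPKM of the members of each complex in each heart, on a linear axis from 0, for transgenic vehicle (TV), transgenic JIB-04 (TJ) and wild type (WT) hearts. Triangles are day 158 and circles day 125. In complexes III, IV and V the day 158 hearts lie below the day 125 hearts of their group, and the transgenic hearts lie below the wild type hearts in all 4 panels.

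Sums by complex set the hearts of both days side by side. Complex IV came to 6685 and 5694 FPKM in transgenic vehicle hearts 2 and 3 (day 158), against 7543 FPKM in heart 1 (day 125), to 5462 FPKM in JIB-04 heart 2 (day 158), against 7410.4 FPKM in JIB-04 heart 1 (day 125), and to 9139 and 8979 FPKM in wild type hearts 3 and 4 (day 158), against 10657 and 11225 FPKM in wild type hearts 2 and 1 (day 125). Complex II moved less, at 1317, 1334 and 1206 FPKM in transgenic vehicle hearts, 1384 and 1219.8 FPKM in JIB-04 hearts, and 1922, 1817, 1709.9 and 1771 FPKM in wild type hearts. Whether the transgenic effect itself differed between the days was tested as an interaction. None of 45 members passed by limma (smallest adjusted p = 0.999, 0 at an unadjusted p under 0.05), with differences from -0.39 to 0.62, and 0.00741% of all tested genes were called. Only 3 of the 6 combinations of group and day held 2 hearts, so the spread rests on these.

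The change of a member was only loosely tied to its level. Over the 45, Spearman's rho between the wild type level and the change was -0.15, given as a description, since the points share the same hearts. Of 41 members at or above 100 FPKM in wild type 37 fell, and of 4 below it 3 fell. In wild type the highest levels after Atp5b were those of Cox7a1 (1425 ± 167 FPKM, SD, n = 4), Atp5a1 (1365 ± 64.2) and Atp5g1 (1324 ± 136), followed by Atp5g3, Cox6a2 and Cox8b. These neighbours lay within each other's spread. In transgenic vehicle hearts the order changed: Cox7a1 averaged 615 ± 220.0 FPKM (SD, n = 3), below Atp5a1 (1065 ± 16.3), Cox6a2 (947 ± 77.5) and Atp5g3 (831 ± 66.0).

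Assembly factors and carriers of the same complexes were counted in a list of 42 genes, all of them tested. In transgenic vehicle hearts 17 fell and 1 rose against wild type, with a median of -0.29, while 15.7% of all tested genes were called lower and 20.3% higher. In JIB-04 hearts 9 fell and 1 rose against wild type, while 14.8% of all tested genes were called lower and 17.4% higher. JIB-04 against transgenic vehicle hearts gave 0 called (limma), and 0 at an unadjusted p under 0.05. The genes named next were chosen after their values were seen. The largest drops were those of Cmc2 (-0.95), Atpif1 (-0.91), the inhibitor of ATP synthase, and Lrpprc (-0.85), which stabilises mitochondrial mRNAs. Cytochrome c itself, Cycs, fell by 0.67, with 183, 164 and 113 FPKM in transgenic vehicle hearts, 202 and 139 FPKM in JIB-04 hearts, and 303, 255, 215 and 241 FPKM in wild type hearts. The gene that rose was Cox19, a copper-related assembly factor of complex IV (1.28, adjusted p = 0.00013, limma). Cox19 was at 40.1, 42.6 and 30.7 FPKM in transgenic vehicle hearts, 44.8 and 36.7 FPKM in JIB-04 hearts, and 15.8, 15.0, 14.5 and 15.0 FPKM in wild type hearts, with no overlap between transgenic and wild type hearts.

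Exons of 12 of the 47 members share positions with another annotated gene (GENCODE M21), and reads there cannot be assigned by strand. Besides Cox6a2 and Atp5o these include Atp5a1 with Haus1 and Atp5j with Gabpa. Cox7a1, Cox7a2, Cox8a, Cox8b and Cox6a1 had no such overlap.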

How the data were processed

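Messenger RNA was sequenced from 9 mouse hearts, grouped by the labels' genotype, treatment, replicate number and day. The kit did not keep strand, per the labels' protocols, and RNA extraction used Trizol. STAR 2.7.1a, Picard, GATK 4.1.2, Cufflinks 2.2.1 and the build GRCm38 appear in what the submitters noted on their processing, per the submitters' processing notes. Neither the step of each tool nor the annotation release is given in the sources used here. Each heart has 1 file, whose deposited values are log2 of FPKM, per the file headers. The added constant is not stated, and 1 was used, as the lowest value was 0 in every file. Depth per heart is unknown, so no counting intervals are given.

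The 13487 genes that reached 1 FPKM in 2 or more hearts were kept. limma 3.58.1 (R 4.3.3) fitted log2(FPKM + 1) with trend, a mean per group and a day term over all 9 hearts, with 5 residual and 3.07 prior degrees of freedom. Two-sided p-values were adjusted over all genes (Benjamini-Hochberg), with a threshold of 0.05. Isoform ratios were compared by exact permutation tests, adjusted over 3 ratios. The scripts were tested on simulated data. Promoters are RefSeq windows (GRCm38.p6) and exon overlaps come from GENCODE M21. Of the list of assembly factors, Sdhaf3 and Sdhaf4 were matched by RefSeq synonym.

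The members and lists were chosen with earlier results of these data known. Named genes are the 6 isoform genes, complex II, and, of each other complex, the 3 called members with the largest change, the 2 highest in wild type and the 1 that changed least, any member called against the majority, and the 3 with the smallest p for JIB-04 against vehicle. Alternatives were other pseudocounts (0.1, 0.5), filters (none, 5 FPKM), scalings, fits without the day term or trend, a replicate block, the compared groups only, day 158 only, and leaving out each heart.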

Additional observations from a re-analysis of the deposited data

Results flagged for a closer look

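In 1 of 48 sets of 4 wild type values, the 45 tested members and the 3 isoform ratios, a heart stood far from the other 3. In the log2 ratio of Cox6a2 to Cox6a1, wild type heart 4 was at 2.57, against 2.72, 2.75 and 2.72 in wild type hearts 1 to 3. The gap to the nearest heart made up 0.849 of the whole range, above Dixon's 95% limit for 4 samples, which chance passes in about 1 in 20 groups. The heart was still above all 5 transgenic hearts, and without it the difference between transgenic and wild type hearts was -0.59 (exact permutation p = 0.0179).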

How the results depend on the processing

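In transgenic vehicle against wild type hearts 40 members were called lower, with 15.7% of all tested genes. The count became 21 (7.43% of all tested genes) under equal totals and 10 (4.02%) with day 158 hearts alone. When a heart was left out, it was 36 to 41 (10.3 to 16.4%). Without mitochondrial and the 20 highest genes in the totals, and under median of ratios, it stayed 40 (14.8% and 18.7%). For JIB-04 against wild type hearts, 39 members were called lower, with 14.8% of all tested genes. The count became 8 (2.63%) with day 158 hearts alone, which hold 1 JIB-04 heart, and 33 (7.88%) under equal totals. When a vehicle heart was left out, it was 38 to 39 (12 to 18.3%). Leaving out a JIB-04 heart leaves 1, so only the members' median is given. It was -0.685 without JIB-04 heart 1 and -0.533 without JIB-04 heart 2, against -0.605 with both. For JIB-04 against transgenic vehicle hearts the count was 0 under every alternative run. Day 158 against day 125 gave 0 to 13 members called when a heart was left out, with 0.0596 to 1.64% of all tested genes called lower. The Cox7a1 to Cox7a2 ratio differed by -0.82 at day 158 alone, against -0.70 in all hearts. Leaving out 1 heart gave -0.77 (without transgenic vehicle heart 1) to -0.57 (without transgenic vehicle heart 3). Without transgenic vehicle heart 3 and JIB-04 heart 2 it was -0.55. A fit without both transgenic vehicle heart 3 and JIB-04 heart 2 was chosen after seeing the data. It called 39 members lower in transgenic vehicle against wild type hearts, and 16% of all tested genes. For JIB-04 against wild type hearts, with 1 JIB-04 heart left, the members' median was -0.531. All genes called in transgenic vehicle against wild type hearts were 2739 higher and 2123 lower, 4504 and 1006 under equal totals, 2350 and 2519 under median of ratios, and 2260 and 2521 under quantile normalization. The fit of day 158 holds fewer hearts, and wherever 1 JIB-04 heart remains it is assumed to vary like the other groups; otherwise the cause was not tested. Uncalled genes changed sign. In transgenic vehicle hearts Sdhc turned to 0.13 under equal totals and 0.043 under quantile normalization, and Cox7a2l to 0.15 under equal totals. In JIB-04 against wild type hearts, equal totals gave 0.091 for Sdhc, 0.050 for Cox7a2l and 0.012 for Atp5s, and quantile normalization 0.17 for Sdhc and 0.0074 for Cox7a2l. Sdhc was also between -0.20 and 0.051 when a heart was left out, with 0.051 without JIB-04 heart 2, and 0.066 without both hearts named above. The replicate block gave 39 and 38 members lower against wild type in transgenic vehicle and JIB-04 hearts, with 13.9% and 12.3% of all tested genes. Its ratio differences were -0.59, -0.72 and -0.87 for the Cox6a, Cox7a and Cox8 pairs. Correlations of same-numbered hearts ran from -0.19 to 0.43, so the numbers were not taken as pairs.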
